A study of Nematostella vectensis with 15 samples.

Results

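The deposited gene models of *Nematostella* combined models of the JGI annotation with transcripts assembled by TACO. The loci described here were the assembled models whose span, from start to end, overlapped no other model on the same scaffold on either strand. This rule, which used no expression value, gave 5456 members of 7151 assembled models and of 27527 models in all. The other 1695 assembled models overlapped a model and were left out, and 18225 JGI models that met the same rule stood beside the members for comparison. The data were 15 RNA-seq libraries of adult female polyps of *Nematostella vectensis*, the starlet sea anemone, with 5 libraries each from cultures at 15, 20, and 25 °C. All polyps were kept at 16‰ salinity and were F1 offspring of the cross CH2XCH6, so the groups differed by temperature and represent the progeny of a single cross. The tissue was labelled as the mesenteric body portion, and the polyadenylated RNA was read in stranded libraries. The labels do not say whether a library came from 1 polyp or from several.

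An assembled model is built from the sequencing reads themselves: aligned reads are joined into transcripts, and a merging program such as TACO reduces the transcripts of many libraries to a consensus. Such a locus can be a gene that the earlier annotation lacked, an exon or untranslated end that was left out of a known gene, a noncoding RNA, or a corrected form of a known gene. The mesenteries of sea anemones are folds of the gut wall that carry the gonads, retractor muscle, and cells that digest and secrete.

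The gene lines of the annotation gave, for every assembled model, how it related to the JGI annotation, and this went against the working name of these loci as lying outside JGI models. Of the 5456 members, 2578 (47.3%) had no reference match. Another 2663 (48.8%) shared an exon with a JGI model, which the gene line named. The last groups were 167 members that lay opposite to a JGI model on the other strand and 48 that met one without sharing an exon. The 2878 members with a match named 2877 different JGI models, and 0 of these JGI models remained in the deposited annotation. For members that overlap the JGI model they name, this follows from the rule, since a retained JGI model would have excluded them. The non-overlap of such a member therefore came with the absence of its JGI counterpart, and only the 2578 members without a match lay outside the earlier models. Both kinds are described separately below as unmatched members and exon-match members. Among the exon-match members, 1371 shared at least 1 splice junction with the JGI model (class code j), 500 contained it (k), and 339 had the same chain of introns (equal).

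Neither kind of identifier is paired with a gene name in the files, and 0 of them were found in the symbol table at hand, so members are given by identifier and position. For the same reason the labelled tissue could not be checked against marker genes. No sequence is shown, because no genome of the assembly used by the files was at hand.

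The unmatched members were the shorter loci. Their median span was 1881.5 bases, against 7592 bases in the exon-match members, and their median summed exon length was 949 bases, against 2277. The median number of exons was 2 in the unmatched and 8 in the exon-match members. A single exon made up 23.2% of the unmatched and 6.50% of the exon-match members, whereas 10 or more exons were found in 11.1% and 43.4%. The unmatched members thus included both single-exon transcripts and 287 loci with many exons.

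**Figure D1:**
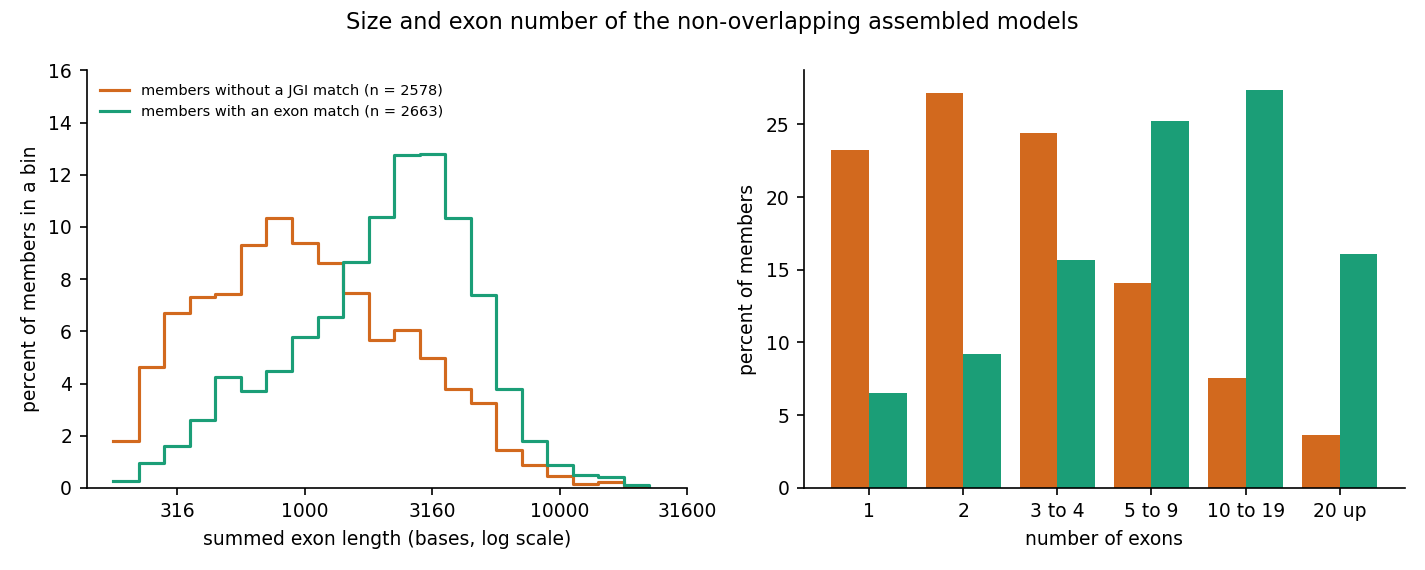
Size of the members. The left panel plots the percent of members in each bin of summed exon length (bases, log scale), and the right panel the percent of members by number of exons, for the 2578 unmatched members (orange) and the 2663 exon-match members (green). The unmatched members lie toward short lengths and few exons, with medians of 949 bases and 2 exons against 2277 bases and 8 exons.

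Every one of the 5456 members carried an annotated coding part, and every coding part was a multiple of 3 bases long. How coding parts were assigned is not given in the sources used here, so their presence does not show that a locus encodes a protein. The median coding length was 516 bases in the unmatched and 1254 bases in the exon-match members, and 72.3% and 96.0% of them had at least 300 coding bases. Untranslated regions at both ends were annotated in 76.6% of the unmatched and 89.3% of the exon-match members, against 11.3% of the non-overlapping JGI models. In the JGI models the median share of coding bases in the exons was 100%, while it was 65.4% in the unmatched members. Many of these ends were short. In the unmatched members the median was 95 bases at the 5′ end and 69 bases at the 3′ end, with lower quartiles of 2 bases and 1 base. At a minimum of 50 bases at each end, chosen after these values were seen, 34.3% of the unmatched members, 63.3% of the exon-match members, and 7.07% of the JGI models had both.

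The members lay on 1910 scaffolds, and 800 of them, 500 unmatched and 278 exon-match, were the only model of their scaffold. Where a scaffold held another model, the median distance to the nearest was 1867 bases for the unmatched and 1424 bases for the exon-match members. The nearest model lay within 1 kb for 667 unmatched members, on the same strand for 336 and on the opposite strand for 331. Of the exon-match members, 999 had a model within 1 kb, on the same strand for 289 and on the opposite strand for 710. Close neighbors of exon-match members were thus mostly on the other strand, which was not so for the unmatched members. It was also so for the non-overlapping JGI models. Where a model and its nearest within 1 kb both passed the filter on low counts given below, 2597 JGI models had it on the opposite strand. On the same strand it lay for 799 of them. For exon-match members these counts were 634 and 234.

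The depth of the libraries, the summed count on all models, ran from 3526175 in 15 °C replicate 3 to 22160961 in 25 °C replicate 1. By temperature, the median library had 7727786 counts (15 °C), 14234219 counts (20 °C), and 11095025 counts (25 °C). Where a library had 0 counts on a model, up to 3 counts are allowed, from counting error only.

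Members received 25.8% ± 0.765 (SD, n = 15 libraries) of all counts, with a range of 24.5% to 27.2%. The exon-match members held most of this, at 20.8% ± 0.545, and the unmatched members 4.58% ± 0.412. By temperature (n = 5 each), the exon-match members held 20.3% ± 0.300 (SD) in the 15 °C libraries, 21.1% ± 0.460 in the 20 °C libraries, and 21.0% ± 0.490 in the 25 °C libraries, and the ranges of the 3 temperatures overlapped. The share of the unmatched members was 4.72% ± 0.486 at 15 °C, 4.81% ± 0.168 at 20 °C, and 4.19% ± 0.217 at 25 °C. It ran from 3.86% to 4.42% at 25 °C and from 4.67% to 5.09% at 20 °C, so that these temperatures did not overlap, while the 15 °C libraries, from 4.15% to 5.16%, overlapped both. A lower share at 25 °C was not limited to the unmatched members. Non-overlapping JGI models to which the annotation matched no assembled transcript held 15.9% ± 1.17 at 20 °C and 13.9% ± 0.961 at 25 °C. Both were below their range at 15 °C, from 17.4% to 19.8%. JGI models with a matched transcript went the other way, at 42.3% ± 1.96, 43.9% ± 0.526, and 46.7% ± 1.11 at 15, 20, and 25 °C. No test was made of these shares. They rest in part on few models, since the 10 highest held 30.3% of the counts on unmatched members. In JGI models without a matched transcript the 10 highest held 43.3%. In bulk libraries of this kind, fewer cells of a type and less RNA per cell cannot be told apart.

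Levels were compared per length as RPKM, the count per kilobase of summed exons and per 1000000 counts of the library. The median RPKM over the unmatched members was 2.10 ± 0.217 (SD, n = 15), and over the exon-match members it was 6.78 ± 0.462. Over all 18225 non-overlapping JGI models it was 3.11 ± 0.226, above that of the unmatched members. A division of the JGI models by whether the annotation matched an assembled transcript to them is itself tied to expression, because transcripts were assembled from reads. Their median was 8.83 ± 0.618 over the 8886 JGI models with a matched transcript, and 0.173 ± 0.0622 over the 9339 without such a transcript. The median of the unmatched members lay between these values in all 15 libraries, from 1.61 to 2.38. Their median RPKM averaged 2.05 ± 0.350 (SD, n = 5) in the 15 °C libraries, 2.15 ± 0.136 in the 20 °C libraries, and 2.10 ± 0.130 in the 25 °C libraries, a difference smaller than the spread between libraries. Members entered the annotation because reads were assembled there, so their level is not independent of how they were found. Which reads went into the assembly is not given in the sources used here.

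**Figure D2:**
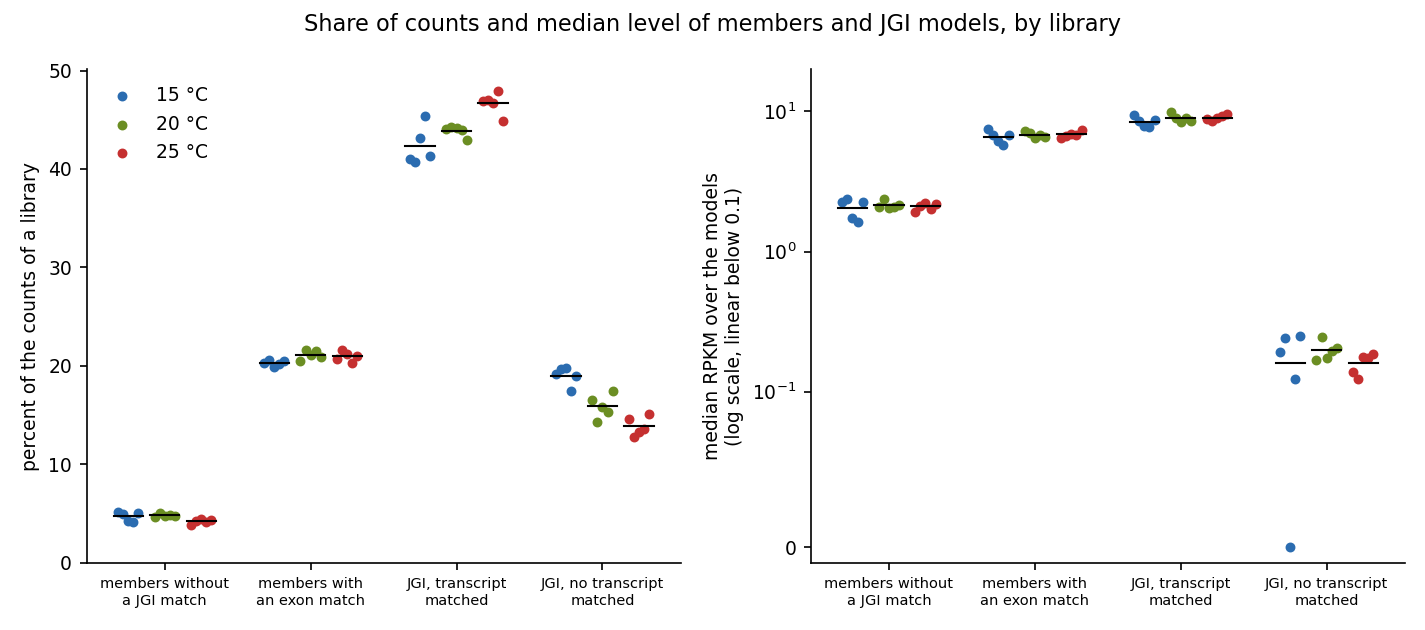
Level of the members by library. The left panel plots the percent of the counts of a library that fell on each set, and the right panel the median RPKM over the models of the set (log scale, linear below 0.1), with 1 point per library, colored by temperature, and a bar at the mean of 5 libraries. The unmatched members held 3.86% to 5.16% of the counts and their median RPKM of 1.61 to 2.38 lay between that of JGI models with and without a matched transcript.

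Every member had a count in at least 1 library, whereas 2327 of the 18225 non-overlapping JGI models had none, of which 2313 were without a matched transcript. A count in every library was found for 4750 members (87.1%), which were 78.8% of the unmatched and 94.7% of the exon-match members. At least 10 counts in every library were found for 1034 unmatched (40.1%) and 2064 exon-match members (77.5%). The number of members detected in a library was 5325 ± 102 (SD, n = 15), and after all libraries were thinned to the lowest total, 90.6% ± 1.80 of the members were detected. The members with a low level per length were mostly unmatched: 807 unmatched members (31.3%) had a mean RPKM under 1, against 279 exon-match members (10.5%). Of the non-overlapping JGI models, 38.1% were under 1. This share was 64.3% in those without and 10.7% in those with a matched transcript.

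The upper end of the distribution was narrow. Of the counts on members, 50% fell on 69 of them and 24.0% on the 10 highest. A mean RPKM of at least 100 was reached by 93 exon-match and 33 unmatched members. The 4 members with the highest RPKM were all exon-match members. The highest was TU35856, which has 7 exons and lies on the plus strand of scaffold 278 at 292519 to 301159, with 7107 ± 578 RPKM (SD, n = 15). It stood in place of the JGI model NEMVEDRAFT_v1g247215 and alone took 1.76% of all counts. TU35835, 9 exons on the same scaffold and strand at 208902 to 218215, had 3038 ± 293 RPKM. TU5887, 3 exons on the plus strand of scaffold 118 at 519526 to 521893, had 3951 ± 616 RPKM. None of these 3 members was called between any temperatures, and their mean RPKM at the 3 temperatures stayed within 7021 to 7197 (TU35856), 2898 to 3273 (TU35835), and 3675 to 4436 (TU5887).

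The other member of this group, TU32386, was lower at 25 °C. It has 4 exons on the minus strand of scaffold 2513 at 34 to 10101, is the only model there, and stood in place of NEMVEDRAFT_v1g148607. Its CPM after TMM normalization (counts per 1000000 of the scaled library) was 2492, 5303, 6358, 5474, and 4123 in replicates 1 to 5 at 15 °C. It was 4386, 3948, 5557, 4259, and 5552 at 20 °C, and 1227, 3749, 1586, 2017, and 1630 at 25 °C. All 5 libraries at 25 °C were below all 5 at 20 °C, whereas 1 of them, replicate 2, lay within the range at 15 °C. The log2 fold change was −1.22 ± 0.276 (SE) between 25 and 15 °C (edgeR quasi-likelihood test, Benjamini-Hochberg adjusted p = 0.00296) and −1.22 ± 0.276 between 25 and 20 °C (adjusted p = 0.0197). The first call was kept in all 20 alternatives, and the second was lost in 3 of them, without 25 °C replicate 3 or 5 and with the second column of counts alone.

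The highest unmatched member, TU75, was chosen after its value was seen. It has 5 exons, with 663 coding bases of 821, on the plus strand of scaffold 1 at 542940 to 546541, and its level was 2398 ± 253 RPKM (SD, n = 15). It was called in none of the comparisons, with a log2 fold change between 25 and 15 °C of 0.11 ± 0.14 (SE; adjusted p = 0.571). The member with the most exons was TU53455, with 91 exons on the minus strand of scaffold 43 at 995927 to 1050581. The member with the longest exons was TU10402, with 27236 bases of which 24252 were coding, on the minus strand of scaffold 135 at 395625 to 449066. Both were exon-match members, at 33.7 ± 4.11 and 51.7 ± 13.0 RPKM, and neither was called between any temperatures.

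The temperatures were compared on the counts in edgeR, and a model was called when its Benjamini-Hochberg adjusted p, over all 17818 models tested, was under 0.05. Of the members, 4348 passed the filter on low counts and 1108 did not. The filter kept 1752 of the unmatched (68.0%) and 2423 of the exon-match members (91.0%). Counts of calls refer to the members that passed.

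Between 25 and 15 °C, 522 members were higher and 799 were lower at 25 °C. The called share was 30.4% of the members tested, near the 31.7% called over all models tested. By direction, 12.0% of the members were higher, against 15% of all models, and 18.4% were lower, against 16.7%. Of the unmatched members, 205 were higher and 295 lower, and of the exon-match members 299 and 471, whereas of the non-overlapping JGI models 1769 were higher and 1665 lower. Members were thus called about as often as other models, with more of their calls toward lower levels in the warm (60.5%, against 48.5% in the JGI models). The median log2 fold change was −0.03 over the members and 0.03 over the JGI models, both small beside the changes of called members, with medians of 0.61 for the higher and −0.66 for the lower. Among the called members, 302 (6.95% of those tested) changed by 1 or more on the log2 scale, against 7.01% of all models. These were 162 unmatched (9.25%) and 126 exon-match members (5.20%). The share was 9.30% in non-overlapping JGI models without a matched transcript and 6.12% in those with one. Median log2 CPM was 2.40 in the unmatched and 4.32 in the exon-match members tested, and the part of level was not tested.

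Between 20 and 15 °C, 343 members were higher and 444 lower at 20 °C. Together they were 18.1% of the members tested, against 18.8% of all models, with 7.89% higher against 9.66% and 10.2% lower against 9.11%. The exon-match members had more lower than higher calls, at 290 and 186. The unmatched members had 141 higher and 136 lower, an order that turned with DESeq2 (139 and 145), limma-voom (128 and 131), and upper-quartile scaling (131 and 139). In this comparison 190 members (4.37%) changed by 1 or more on the log2 scale, against 4.42% of all models.

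Between 25 and 20 °C, few models were called, and the members called were mostly lower at 25 °C. They were 27 higher and 121 lower members, together 3.40% against 3.68% of all models, with 0.621% higher against 1.14% and 2.78% lower against 2.54%. Of the unmatched members, 4 were higher and 56 lower. Of the exon-match members, 23 were higher and 56 lower. A change of 1 or more on the log2 scale was called for 48 members (1.10%), against 0.993% of all models. The 3 comparisons share libraries and are not independent of each other. Leaving out 20 °C replicate 2, 4, or 5 or 25 °C replicate 2 or 5 lowered the count of 148 called members to 98, 94, 86, 94, and 89, in that order. DESeq2 called 244 members in this step, 61 higher and 183 lower.

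**Figure D3:**
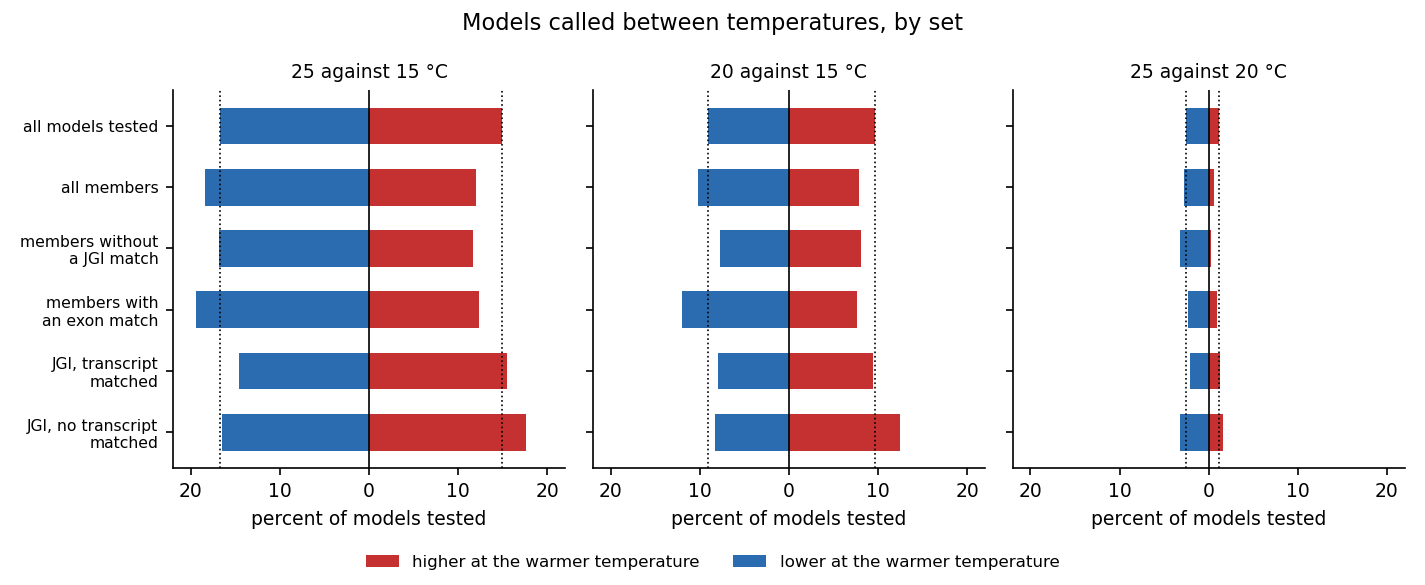
Calls by set. Each panel plots, for a comparison, the percent of the models tested that were higher (red, to the right) or lower (blue, to the left) at the warmer temperature at an adjusted p under 0.05, and the dotted lines mark the shares over all 17818 models tested. The members lie near these lines in total, with 12.0% higher and 18.4% lower between 25 and 15 °C against 15% and 16.7%.

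The direction of the calls differed with the number of exons. Among the members with 10 or more exons, 144 were higher and 360 lower at 25 than at 15 °C, of 1494 tested. Among single-exon members the counts were 79 and 82 of 487, and among members with 2 to 9 exons 299 and 357 of 2367. The many-exon members were lower in 71.4% of their calls, against 60.5% over all members and 52.8% over all models tested. The share of the many-exon members was between 68.4% and 75.2% with DESeq2, limma-voom, upper-quartile scaling, and thinned libraries. The share among single-exon members was 50.9%, and 48.7% to 54.4% with DESeq2, limma-voom, and upper-quartile scaling. In thinned libraries, however, 15 single-exon members were higher and 43 lower (74.1%), level with the 75.2% of the many-exon members. Between 20 and 15 °C, 95 of the many-exon members were higher and 245 lower, whereas of those with 2 to 9 exons 196 were higher and 157 lower. Non-overlapping JGI models with 10 or more exons also had more lower calls, 384 against 263 between 25 and 15 °C, which was 59.4% of their calls. The lower share was 46.1% in JGI models with 2 to 9 exons and 45.4% in those with a single exon. No test was made between these classes. Exon number moved together with level, since the median of the mean RPKM was 10.1 in the members with 10 or more exons, 2.96 in those with 2 to 9, and 1.24 in those with a single exon, and the part of level in this result was not tested.

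Calls were more frequent where counts were higher. When all models tested were divided into 4 equal classes by average log2 CPM, 20.2% of the members in the lowest class were called between 25 and 15 °C, 30.5% and 33.4% in the next classes, and 38.3% in the highest. In the highest class the called share was 40.2% of 264 unmatched members, 38.0% of 916 exon-match members, and 38.5% of 2364 JGI models. In the lowest class it was 19.3% of 760, 21.3% of 437, and 22.7% of 2798. In the lowest and highest classes the unmatched members were therefore called about as often as exon-match members and all JGI models together. The JGI models differed among themselves, at 46.9% of 578 without and 35.7% of 1786 with a matched transcript in the highest class. In the class below it, 36.5% of 307 unmatched members, 31.6% of 624 exon-match members, and 35.5% of 2805 JGI models were called.

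Members with the greatest rises and falls were named from those that were called, averaged 0 or more in log2 CPM, and had libraries that did not overlap between the 2 temperatures. The greatest rises set in between 15 and 20 °C. TU70287 is an unmatched member of 9 exons, with 1566 coding bases of 3882, on the plus strand of scaffold 71 at 546104 to 562829. Its normalized CPM was 8.68, 9.36, 9.35, 15.8, and 9.40 in replicates 1 to 5 at 15 °C. It was 110.4, 104.0, 76.8, 96.8, and 95.1 at 20 °C, and 85.7, 90.1, 95.0, 88.5, and 73.3 at 25 °C. The 15 °C libraries stood far below all others, and 20 and 25 °C overlapped. The level was 9.09-fold higher at 20 than at 15 °C (log2 fold change 3.18 ± 0.15 SE, edgeR, Benjamini-Hochberg adjusted p = 9.61e-11) and 8.13-fold higher at 25 than at 15 °C (3.02 ± 0.15, adjusted p = 1.78e-10).

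TU59588, an unmatched member of 17 exons with 3060 coding bases of 5790, lies on the plus strand of scaffold 51 at 268705 to 285593, with the nearest model 17645 bases away. Its normalized CPM was 53.7, 90.1, 64.5, 99.95, and 72.1 at 15 °C. It was 491.6, 668.5, 499.4, 628.6, and 523.4 at 20 °C, and 417.1, 543.9, 565.4, 386.3, and 366.7 at 25 °C. All 10 warmer libraries were thus above all 5 at 15 °C. The level at 20 °C was 7.37-fold that at 15 °C (log2 fold change 2.88 ± 0.18 SE, edgeR adjusted p = 2.59e-09), and it was not called between 25 and 20 °C (−0.30 ± 0.16, adjusted p = 0.362).

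TU67818 is a single-exon exon-match member of 836 bases that starts at the first base of scaffold 666, on the plus strand at 1 to 836, and stood in place of NEMVEDRAFT_v1g142436. Its normalized CPM ran from 3.10 to 5.24 at 15 °C, from 18.3 to 29.6 at 20 °C, and from 15.7 to 35.6 at 25 °C. It was 6.95-fold higher at 25 than at 15 °C (log2 fold change 2.80 ± 0.23 SE, edgeR adjusted p = 1.47e-07), with no overlap of the libraries.

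Among the called members at this level whose libraries did not overlap between 15 and 25 °C, TU25970 had the greatest fall, and it fell in both steps. It is an exon-match member of 3 exons on the minus strand of scaffold 21 at 1388029 to 1391870, and stood in place of NEMVEDRAFT_v1g200449. Its normalized CPM was 36.3, 35.0, 75.8, 67.8, and 37.3 at 15 °C, 17.2, 15.2, 16.8, 19.4, and 15.6 at 20 °C, and 7.03, 7.55, 4.86, 6.88, and 7.08 at 25 °C. The 3 temperatures did not overlap. The log2 fold change was −2.89 ± 0.21 (SE; edgeR adjusted p = 5.53e-08) between 25 and 15 °C, −1.56 ± 0.20 (adjusted p = 2.56e-05) between 20 and 15 °C, and −1.33 ± 0.21 (adjusted p = 0.00162) between 25 and 20 °C. The last 2 calls were kept in all alternatives.

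TU28371, an unmatched single-exon member of 1398 bases on the minus strand of scaffold 226 at 39075 to 40472, fell from few counts to fewer. It had 16, 33, 6, 6, and 34 counts at 15 °C, and 5, 0, 1, 7, and 10 at 25 °C. Its log2 fold change was −2.88 ± 0.50 (SE; edgeR adjusted p = 0.000292) between 25 and 15 °C, with normalized CPM from 0.715 to 4.38 at 15 °C and from 0 to 0.644 at 25 °C.

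The greatest falls between 20 and 15 °C were those of 2 unmatched members in which a single library stood out. TU30246, a single exon of 672 bases on the plus strand of scaffold 239 at 45176 to 45847, had a normalized CPM of 42.5, 27.4, 129.6, 28.8, and 32.3 at 15 °C and from 3.71 to 15.9 at 20 °C. TU7492, with 2 exons on the minus strand of scaffold 12423 at 1 to 1331, had 13.1, 5.73, 56.4, 10.7, and 9.79 at 15 °C and from 1.72 to 5.33 at 20 °C. In both, 15 °C replicate 3, the library with the fewest counts, was the highest, and the libraries did not overlap. The log2 fold change was −2.73 ± 0.57 (SE; edgeR adjusted p = 0.00448) for TU30246 and −2.46 ± 0.66 (adjusted p = 0.0190) for TU7492. Without 15 °C replicate 3 it was −2.12 and −1.66, and both were still called.

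Between 25 and 20 °C the greatest rises were smaller. TU49797, an exon-match member of 2 exons and 285 bases on the plus strand of scaffold 398 at 66271 to 67057, had a normalized CPM from 0.481 to 0.677 at 20 °C and from 1.20 to 2.51 at 25 °C. Its log2 fold change was 1.41 ± 0.34 (SE; edgeR adjusted p = 0.0241), from 5 to 11 counts per library at 20 °C. The call was lost without 20 °C replicate 1 (1.40), 20 °C replicate 4 (1.35), or 25 °C replicate 5 (1.14). TU14533, an exon-match member of 9 exons on the minus strand of scaffold 153 at 324689 to 331079, ran from 9.24 to 24.3 at 20 °C and from 31.4 to 46.0 at 25 °C, a log2 fold change of 1.26 ± 0.28 (adjusted p = 0.0215). Its 15 °C libraries, from 10.7 to 29.4, lay with those at 20 °C, so the rise of TU14533 set in above 20 °C. Its call was lost without 20 °C replicate 2 (1.18) or 25 °C replicate 2 (1.19), and in libraries thinned to the lowest total (1.34).

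The greatest falls in this step were those of the unmatched single-exon members TU34262 on the plus strand of scaffold 2663 at 6822 to 8158 and TU35297, on the plus strand of scaffold 272 at 68931 to 70767. TU34262 had a normalized CPM of 12.0, 4.96, 6.45, 0.953, and 7.73 at 15 °C, 3.46, 9.13, 1.05, 6.12, and 3.45 at 20 °C, and 0.635, 0.360, 0.810, 0.881, and 0.966 at 25 °C. TU35297 had 6.57, 2.97, 2.90, 0.238, and 3.73 at 15 °C, 2.17, 5.55, 0.943, 2.82, and 1.60 at 20 °C, and from 0.120 to 0.709 at 25 °C. Both were lowest in 15 °C replicate 4 and 20 °C replicate 3 within their groups, and their log2 levels ran together over the 15 libraries with r = 0.980. The log2 fold change between 25 and 20 °C was −2.60 ± 0.63 (SE; edgeR adjusted p = 0.0347) for TU34262 and −2.39 ± 0.63 (adjusted p = 0.0472) for TU35297. These 2 calls were close to the threshold, and 12 of 19 alternatives lost that of TU34262 and 13 of 17 that of TU35297, including most fits with a library left out. Over the alternatives the log2 fold change ran from −3.12 to −2.26 for TU34262 and from −2.58 to −1.997 for TU35297, with adjusted p up to 0.0946 and 0.120 (edgeR, DESeq2, or limma). Between 25 and 15 °C the log2 fold change of TU34262 was −3.08 ± 0.64 (SE; edgeR adjusted p = 0.00230), greater than that of TU25970, but the libraries overlapped, with 15 °C replicate 4 at 0.953 within the range at 25 °C.

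**Figure D4:**
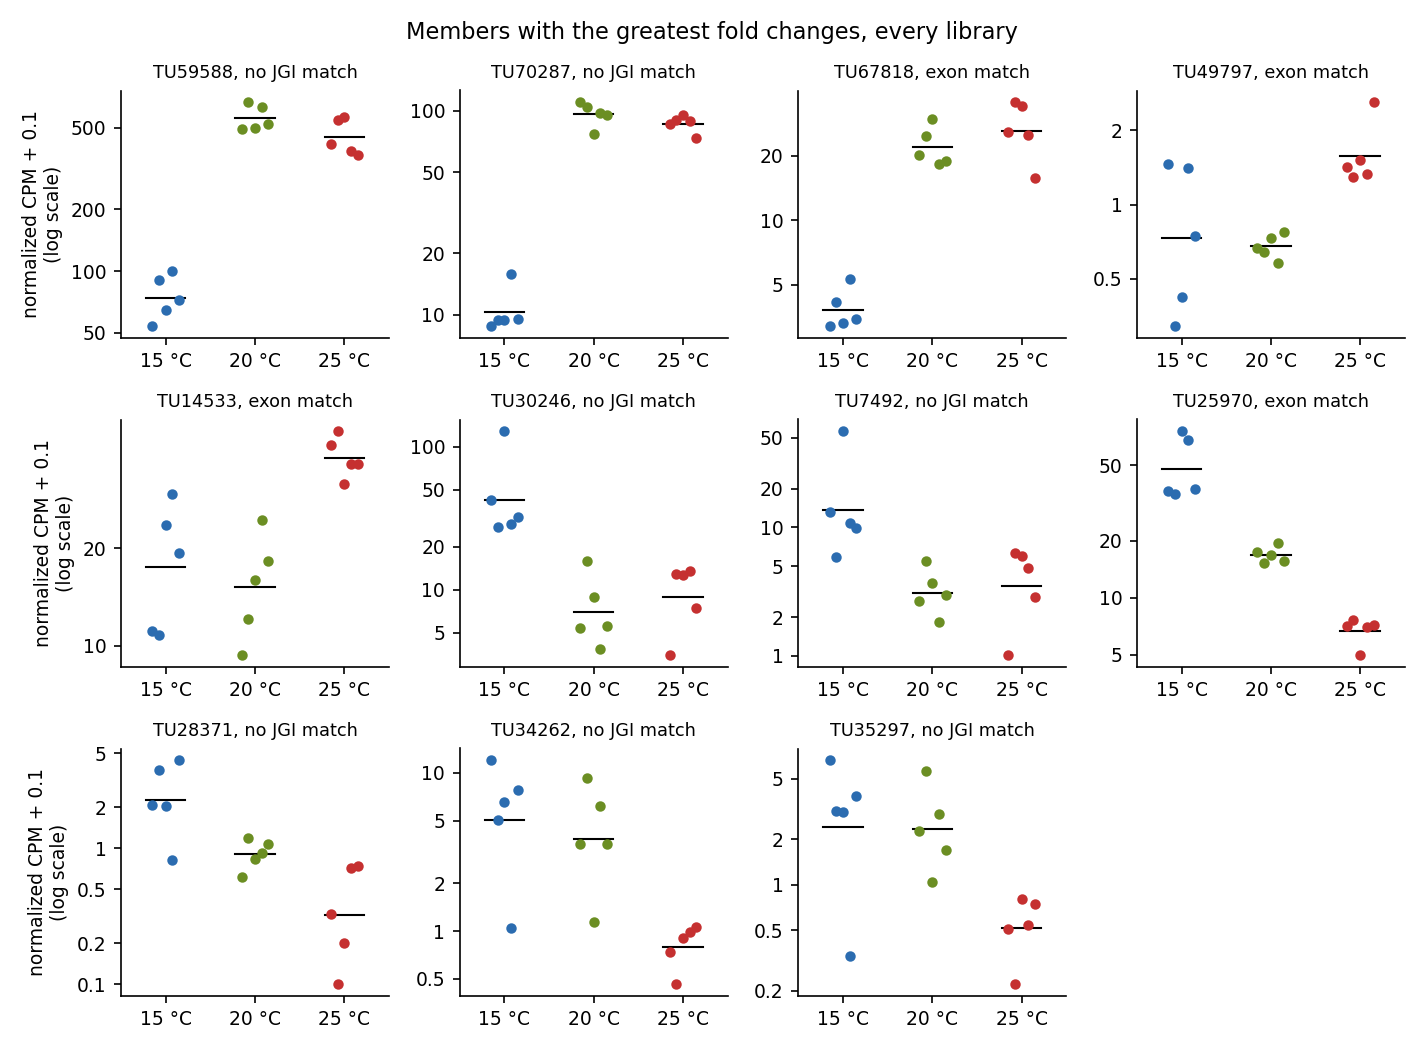
Members with the greatest rises and falls. Each panel plots the normalized CPM plus 0.1 (log scale) of a member in every library by culture temperature, with a bar at the geometric mean of 5 libraries. TU70287, TU59588, and TU67818 are low in all 5 libraries at 15 °C and high in the other 10, TU25970 falls at both steps, and 15 °C replicate 3 stands at 129.6 in TU30246 and 56.4 in TU7492.

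The 4 unmatched members that were higher at 25 than at 20 °C were named because they were so few, after their values were seen. TU63708, with 4 exons on the plus strand of scaffold 588 at 33807 to 41206, had a log2 fold change of 1.06 ± 0.23 (SE; edgeR adjusted p = 0.0131). TU30259, with 5 exons on the minus strand of scaffold 239 at 11267 to 16448, had one of 0.61 ± 0.16 (adjusted p = 0.0361). TU41478, with 20 exons on the plus strand of scaffold 315 at 35398 to 58241, was at 33.6 to 42.9 normalized CPM at 20 °C and at 48.7 to 62.8 at 25 °C, a log2 fold change of 0.57 ± 0.10 (adjusted p = 0.00211). TU45063, with 5 exons on the minus strand of scaffold 35 at 50121 to 54270, had a log2 fold change of 0.47 ± 0.12 (adjusted p = 0.0305). The libraries of TU63708 overlapped, from 2.39 to 6.29 at 20 °C and from 5.27 to 8.89 at 25 °C, and those of the other 3 did not. The call of TU41478 was kept in all 20 alternatives, whereas 8 lost that of TU30259, 10 that of TU45063, and 2 that of TU63708. Most losses of TU30259 and TU45063 came with a single library left out.

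A single member was without a count in all 5 libraries of a temperature and had at least 10 counts in all 5 of another. TU74718, an unmatched member of 11 exons with 681 coding bases of 960, lies on the plus strand of scaffold 81 at 334037 to 340483, and was singled out after its values were seen. It had 0 counts in each 15 °C library, 20, 14, 17, 11, and 28 counts in replicates 1 to 5 at 20 °C, and 5, 3, 6, 1, and 14 at 25 °C. Summed over the 5 libraries it was at 1.33 CPM at 20 °C and 0.441 CPM at 25 °C, and the 3 counts that a sum of 0 allows at 15 °C correspond to 0.0800 CPM. With the counts at 20 and 25 °C taken as they were, the level at 20 °C was at least 16.7-fold that at 15 °C. At 25 °C it was at least 5.51-fold that at 15 °C. These bounds cover counting error at 15 °C only, and 25 °C replicate 4 had a single count. TU74718 did not pass the filter on low counts, so it was not tested between temperatures. The 15 °C libraries also had the lowest median depth of the 3 temperatures. Of the 18225 non-overlapping JGI models, 1 had 0 counts at 20 °C and at least 10 in all 5 libraries at 15 °C. In the same way, 1 had 0 counts at 25 °C and at least 10 at 15 °C, and whether it was the same model was not examined.

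Members and their nearest model were compared by the correlation of log2 normalized CPM over the 15 libraries, which share depth and temperature. Each model was paired with its own nearest model. Models of a set that were nearest to each other thus entered more than once, and the counts of pairs are not of distinct pairs. For 191 unmatched members with a tested neighbor on the same strand within 1 kb, the median r was 0.394, and 41 pairs (21.5%) had an r over 0.8. With a neighbor on the opposite strand, the median over 239 pairs was 0.0532 and 0 pairs passed 0.8. After the mean of each temperature was removed, the same-strand median was 0.317. Of the same-strand pairs, both models were called between 25 and 15 °C in 49, and 45 of these moved in the same direction, whereas 9 of 18 did on opposite strands. The same-strand counts within 1 kb were 18 of 30 for exon-match members and 104 of 139 for all non-overlapping JGI models. For JGI models without a matched transcript they were 50 of 65. On opposite strands, 151 of 241 pairs of the non-overlapping JGI models moved in the same direction. The likeness of close neighbors on the same strand was not particular to the unmatched members. Its median r was 0.123 over 234 pairs for exon-match members and 0.282 over 799 pairs for all non-overlapping JGI models. It was 0.207 over 448 pairs for JGI models with a matched transcript. For JGI models without a matched transcript it was 0.427 over 351 pairs, of which 19.4% had an r over 0.8. Same-strand neighbors at 1 kb or more had medians of 0.223 for the unmatched and 0.0856 for the exon-match members. The median at that distance was 0.263 for JGI models without a matched transcript. The study's methods name featureCounts with default parameters, which do not use strand, but do not tie these settings to the deposited counts.

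**Figure D5:**
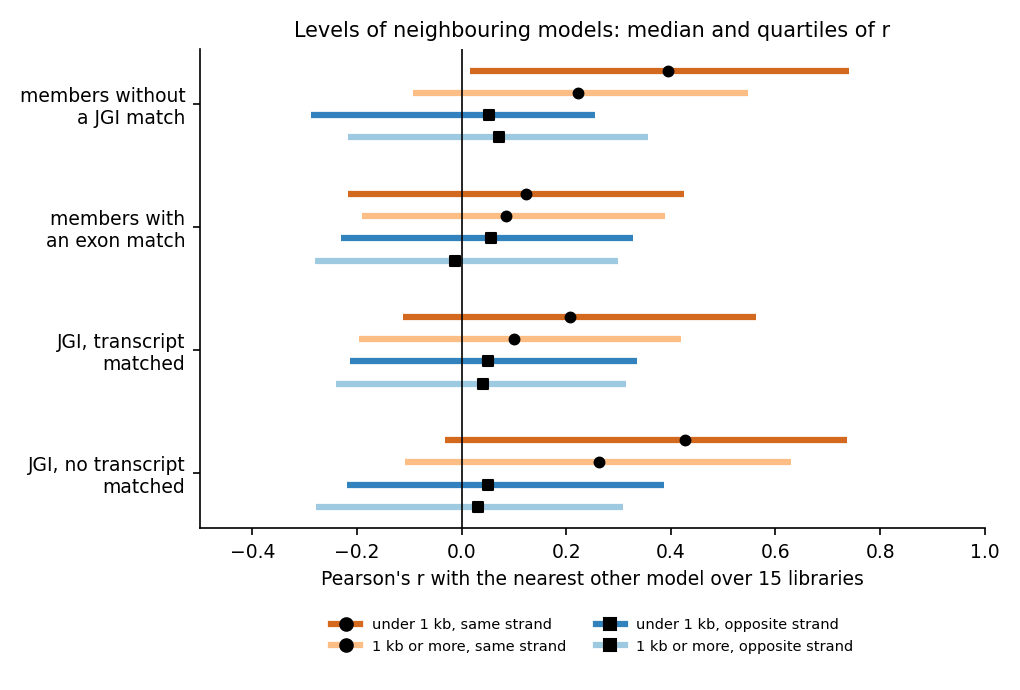
Likeness of members to the nearest model. Points mark the median and bars the quartiles of Pearson's r between the log2 normalized CPM of a model and that of its nearest model over 15 libraries, by set, strand, and distance. Unmatched members within 1 kb of a model on the same strand have a median of 0.394, and all sets are near 0 on opposite strands.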

How the data were processed

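The authors deposited fragment counts per gene model as whole numbers without normalization, in 2 columns for each library. What separates the columns is not given in the sources used here, so they were summed. The submitters' processing notes name Trimmomatic 0.38, HISAT2 2.1.0, StringTie 2.0, and featureCounts. Overlap, the distance to the nearest model, and structure were taken from the deposited annotation, whose build is not given in the sources used here. Coordinates are 1-based. The length column equaled the summed exons in all 27527 models. Groups and replicate numbers came from the sample labels. The labels do not state that replicates were separate cultures, so p-values measure the spread between these samples, which may be technical.

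The 3 temperatures were compared on the counts with edgeR 4.0.16 in R 4.3.3 (TMM, filterByExpr, robust quasi-likelihood test, all 15 libraries, Benjamini-Hochberg adjustment over 17818 models). The SE was the log2 fold change divided by the square root of F. Correlations used log2 of normalized CPM plus 1. Summaries used Python 3.11.15, pandas 2.3.3, and numpy 2.4.6, and figures matplotlib 3.10.9. The procedures were tested on simulated data. Alternatives used DESeq2 1.42.0, limma-voom (limma 3.58.1), upper-quartile scaling, other filters, either column alone, thinned libraries, a replicate block, libraries left out in turn, and stricter definitions of a member.

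In each comparison the named members were the 2 greatest rises and the 2 greatest falls among members called that averaged 0 or more in log2 CPM and whose libraries did not overlap. To these were added the 4 highest in mean RPKM with at least 200 exon bases, and those with the most exons and the longest exons. The members, lists, and rules were chosen with earlier results of these data known, and the division by JGI match was made after the annotation was seen. The study's methods give no test between temperatures.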

Additional observations from a re-analysis of the deposited data

Results flagged for a closer look

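In groups of 5 libraries, a library whose gap to the nearest other exceeded 0.71 of the range of the group (Dixon's criterion) was found in 12 of 90 groups examined, where chance alone gives about 4.5. The groups share libraries and are not independent. Replicate 3 at 15 °C, which had the lowest total count, had the fewest detected models, at 4981 of all members (5284 to 5350 in the others), 2203 of the unmatched, and 2575 of the exon-match members. After thinning to equal depth, 25 °C replicate 1, which had the highest total, had the lowest share of exon-match members detected, at 93.4% against 95.5% to 96.3%.

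Of the named members, TU70287 was high in 15 °C replicate 4, at 15.8 normalized CPM against 8.68 to 9.40 in the others, and TU53455 was low in the same library, at 420.6 against 523.0 to 559.6. TU30246 and TU7492 were high in 15 °C replicate 3, at 129.6 against 27.4 to 42.5 and at 56.4 against 5.73 to 13.1. TU25970 was low in 25 °C replicate 3, at 4.86 against 6.88 to 7.55. TU49797 was high in 25 °C replicate 5, at 2.51 against 1.20 to 1.42. TU35856 was low in 20 °C replicate 1, at 13819 against 17928 to 19337, and TU5887 in 25 °C replicate 4, at 5749 against 7440 to 7723.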

How the results depend on the processing

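Between 25 and 15 °C and between 20 and 15 °C, the count of members called stayed within 1.5 times the main count with DESeq2, limma-voom, upper-quartile scaling, other filters, only the libraries compared, and each library left out in turn, at 1089 to 1452 and 625 to 856. Between 25 and 20 °C it was 86 to 133 with a library left out, and 34 to 61 unmatched and 44 to 68 exon-match members. Of the 10 libraries, 20 °C replicates 4 and 5 and 25 °C replicates 2 and 5 lowered all 3 of these counts by over 1.5 times, and 20 °C replicate 2 lowered those of all members and of the unmatched. DESeq2 called 244 in this step, 97 unmatched and 135 exon-match. The second column alone gave 874, 495, and 84 called members in the 3 comparisons, 298, 160, and 35 unmatched, and 314 and 46 exon-match between 20 and 15 °C and between 25 and 20 °C. Thinning to the lowest total gave 529, 314, and 47 members, 182, 91, and 21 unmatched, and 326, 211, and 23 exon-match. A log2 fold change of at least 1 left 302, 190, and 48 members, 162, 90, and 29 unmatched, and 126, 92, and 15 exon-match. At least 1 kb from any model, with fewer members tested, 832 and 492 members were called in the first 2 comparisons, with 332 unmatched in the first and 468 and 285 exon-match. The count share was 14.7% for members at least 1 kb from any model and 19.6% without the 10 highest members. Detected members numbered 4244 at 10 counts or more, 4942 after thinning, and 4936 in the second column. The median was 6.22 as CPM without division by length, and the median RPKM was 4.92 for members with 2 or more exons and 3.02 for those at least 1 kb from any model. Of 225 fits of the rises and falls by which members were named, 194 kept the call, 31 lost it, all between 25 and 20 °C, and 0 reversed. Of 178 fits of 9 other calls in the report, which were added after the data were seen, 155 kept the call, 23 lost it, and 0 reversed. Where no cause is given, the cause was not tested. With a replicate block the counts were 1398, 827, and 169. The labels give the numbers no meaning, and 6 of 15 same-numbered pairs had correlated deviations (r over 0.1, from −0.089 to 0.286), with 4 of 15 libraries closest to their own number. No scaling moved the median of all models by over 0.1. The filter on low counts removed 826 of 2578 unmatched and 240 of 2663 exon-match members.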

Other observations

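The non-overlapping members with an opposite-strand match formed a small class of their own. The 167 such loci had a median span of 5802 bases and a median coding share of 49.6% of the exon bases, against 65.4% in the unmatched members. Of the 140 tested, 13 were higher and 30 lower at 25 than at 15 °C, at a called share of 30.7% against 31.7% over all models. Each lay opposite to a JGI model that was not among the deposited models, as the overlap rule requires. The study's methods name featureCounts with default parameters, which do not use strand, but do not tie these settings to the deposited counts. Without strand, reads of the 2 strands at such a locus cannot be told apart.

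The columns of counts differed slightly between members and JGI models. Among models with a mean of at least 200 counts, the median log2 ratio of the second to the first column was −0.07 over 1790 members. It was 0.05 over the 2958 JGI models with a matched transcript. The meaning of the columns is not given in the sources used here.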
